A study of Mus musculus with 15 samples.

Results

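The sperm tRNA-derived fragments (tRFs) of males from an obesity-inducing diet (OID) lineage were compared here with those of males from a control diet (CO) lineage, with both generations of the study in 1 model. All 15 of the 15 libraries entered, 8 OID and 7 CO. The readout was each of the 47 tRFs among the 215 entries of the deposited table, and every tRF was kept. A tRF carries the name of its amino acid and anticodon, so that ArgCCG stands for the fragments counted on arginine tRNAs with the anticodon CCG.

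All males were C57BL/6 mice, of the substrain C57BL/6NTac per the study's methods. F0 males received either the CO diet or the lard-based OID for 7 weeks from weaning, and were then mated with females kept on the CO diet. F1 males were sons from these matings and ate the CO diet only, whatever their father had eaten, so that the OID was eaten by the 4 OID F0 males and not by the 4 OID F1 males. The comparison groups were 3 CO F0, 4 CO F1, 4 OID F0 and 4 OID F1 males. The age of the males at sperm collection is not given in the sources used here, nor whether a sequenced son descended from a sequenced father, and p-values measure the spread between these libraries. RNA came from sperm of the caudal epididymis after lysis of somatic cells, and pieces of 30 to 45 nucleotides were cut from a gel.

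In mature sperm, fragments of tRNAs are the most abundant class of small RNA, and many are the front part of a tRNA, released by cleavage in or near the anticodon loop. Paternal diet has been linked to the tRF content of sperm in mice, and sperm takes up small RNA from the epididymis during its passage. Each tRNA reads its codons through the anticodon, and the first anticodon base is often modified, for example to inosine where the gene has A.

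Of the tRFs that differed between the lineages, a gene sequence is printed here for ArgTCG, whose fragments were fewer in OID, beside ArgTCT, an arginine tRF that was not called. ValCAC is shown for the valine family, and 3 serine tRNAs for how alike the front parts of tRNAs of 1 family are. Sequences are from RefSeq loci on GRCm38.p6, written 5′ to 3′ as DNA without the added CCA end, and capitals mark the anticodon. The first 3 run over the whole gene, and the serine sequences stop at the anticodon.

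ArgTCG, chr7:79466419-79466491, plus strand: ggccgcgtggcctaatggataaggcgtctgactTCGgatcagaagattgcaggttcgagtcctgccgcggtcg

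ArgTCT, chr3:122292948-122293032, minus strand: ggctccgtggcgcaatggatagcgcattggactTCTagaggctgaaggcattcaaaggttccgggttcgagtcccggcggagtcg

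ValCAC, chr13:23446142-23446214, minus strand: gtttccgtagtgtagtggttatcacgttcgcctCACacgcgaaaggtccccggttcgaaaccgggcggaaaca

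SerAGA, chr4:10874064-10874145, plus strand: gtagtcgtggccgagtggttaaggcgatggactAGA

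SerTGA, chr13:23518146-23518227, plus strand: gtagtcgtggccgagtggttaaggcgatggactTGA

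SerGCT, chr13:22050686-22050767, minus strand: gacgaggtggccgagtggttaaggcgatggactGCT

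In the bases before the anticodon, ArgTCG and ArgTCT were identical at 24 of 33 positions. SerAGA and SerTGA were identical at 33 of 33, so that a fragment that ends before the anticodon fits both, while SerAGA and SerGCT shared 29 of 33. Per the study's methods, a read that fits several tRNAs counts toward each of them with a weight, and the table holds no fragment sequences. The reads recovered from the values were all whole, although such weights would leave fractions, so how shared reads entered the values is not known. The ArgTCG gene shown is 1 of 5 on GRCm38.p6. It lies in an exon of Gm10616, an unclassified transcript of GENCODE M21, and 146 bases from the RefSeq start of Polg, the catalytic subunit of the mitochondrial DNA polymerase, which is transcribed from the other strand. The other 4 ArgTCG genes, on chromosomes 11 and 13, lie outside annotated genes. ArgCCG has 3 genes, at chr11:107012866-107012938, chr13:21215458-21215530 and chr17:23550263-23550335, and all 3 lie outside annotated genes. ValTAC has 3 genes, SerCGA 3 and GlnCTG 10, also all outside annotated genes. The values do not tell the genes of 1 anticodon apart.

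The precision of the values rests on the reads behind them, and these differed between the lineages. The median was 341927 tRF reads in CO libraries (17966 to 2675346) and 2033218.5 in OID libraries (295389 to 5363471). After adjustment for generation, OID libraries were 7.93 times deeper (log2 difference of 2.99; two-sided exact permutation test within generations, p = 0.00694). Only CO libraries lay under 100000 tRF reads, and there were 2 of them, CO F0 replicate 3 with 17966 and CO F1 replicate 2 with 35677. In these a single read was worth a normalized value of 48.2 and 18.8, against 0.105 in the deepest library. Fits with log2 depth as a covariate, and fits of the libraries with at least 100000 reads, are therefore given as well. They stand beside each tRF with an unadjusted p under 0.05 and beside the most abundant pair. In the covariate fit, the values themselves moved with depth in 18 tRFs at an unadjusted p under 0.05. The slope passed adjustment in 2, ThrAGT (0.285 per log2 unit of depth) and ArgTCG (-0.215). Depth and lineage went together, so this fit cannot fully separate them. With at least 100000 reads, the 5 CO libraries still ran from 271812 to 2675346 reads, against 295389 to 5363471 in OID. Reads on miRNA entries that could show other cells were few. The 3 sperm miRNA precursors in the table had 0 to 4 reads in a library and the 2 of blood 0 to 1. The 4 epithelial ones had 1 to 15 reads in CO (median 1.27% of the miRNA reads) and 4 to 11 in OID (1.78%). Smooth muscle and stroma were marked by miR-143 alone, with 2 to 9 reads in CO (3.54%) and 0 to 8 in OID (0.808%), and the part of other cells in the results was not tested.

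**Figure D1:**
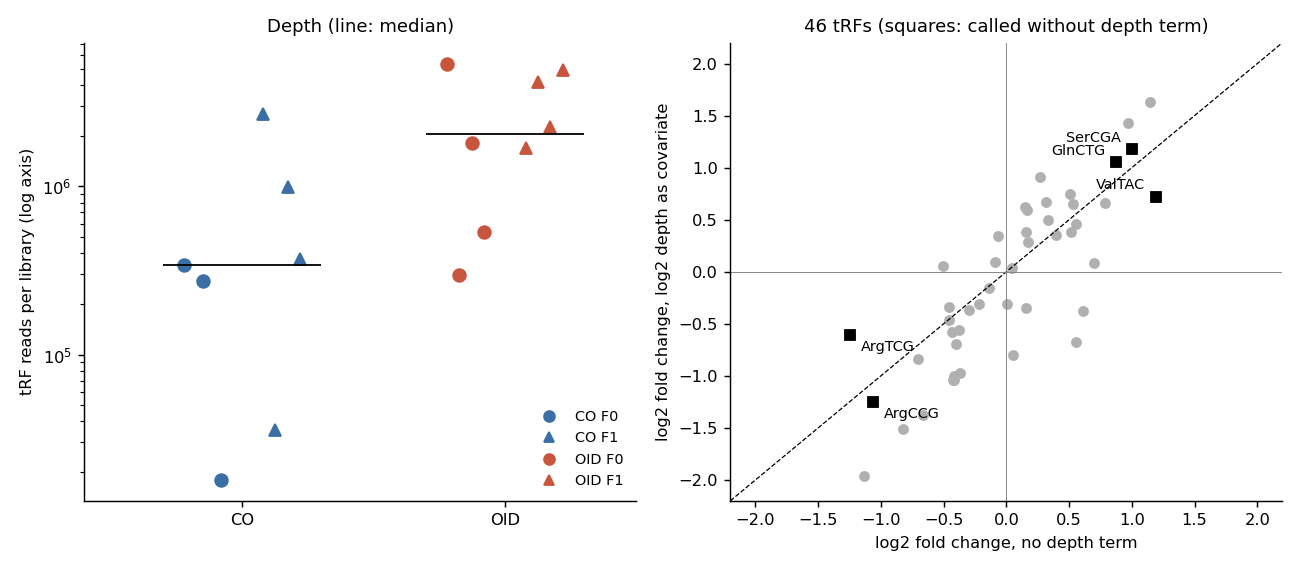
Depth and its bearing on the fold changes. Left, tRF reads per library on a log axis, by lineage and generation, with the median of each lineage as a line; the 2 shallowest libraries, 17966 and 35677 reads, are both CO. Right, the log2 fold change (OID over CO) of 46 tRFs without a depth term (x axis) and with log2 depth as a covariate (y axis), where squares are the called tRFs and the dashed line marks equal values; ArgTCG moves from -1.25 to -0.61 and ValTAC from 1.19 to 0.72, while ArgCCG, SerCGA and GlnCTG move away from 0.

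Lineage diet came with a difference in 5 of the 47 tRFs, which is 10.6% of those tested. ArgCCG and ArgTCG were lower in sperm of OID males, at 0.479 and 0.421 of the CO level. ValTAC, SerCGA and GlnCTG were higher in OID, by 2.29, 2.00 and 1.83 times. The 3 higher tRFs were 6.38% and the 2 lower ones 4.26% of all tRFs tested. These calls are from limma on log2 of the normalized value + 1, with generation as a further term and Benjamini-Hochberg adjustment over the 47 tRFs, and an adjusted p under 0.05 was called, and SE below is the standard error of that fit. Fold changes on this scale understate the change of tRFs with low values. Without adjustment, 13 tRFs (27.7%) had a p under 0.05, 7 higher and 6 lower. Over all 47 tRFs the median log2 fold change was 0.05, with 25 above 0 and 22 below. ValTAC, SerCGA, ArgCCG and ArgTCG are among the tRFs that the study chose on these same samples, so that their direction here is not independent evidence of it.

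The split of the calls moved with the scaling of the libraries. It was 3 higher and 2 lower as deposited, 5 and 2 with median of ratios scaling, 1 and 2 when libraries were scaled without GlyGCC and GluCTC, and 0 and 2 when all libraries were set to the same summed tRF value. The median log2 fold change of all tRFs moved from 0.05 to -0.10 in the last of these and to -0.07 in the one before it.

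**Figure D2:**
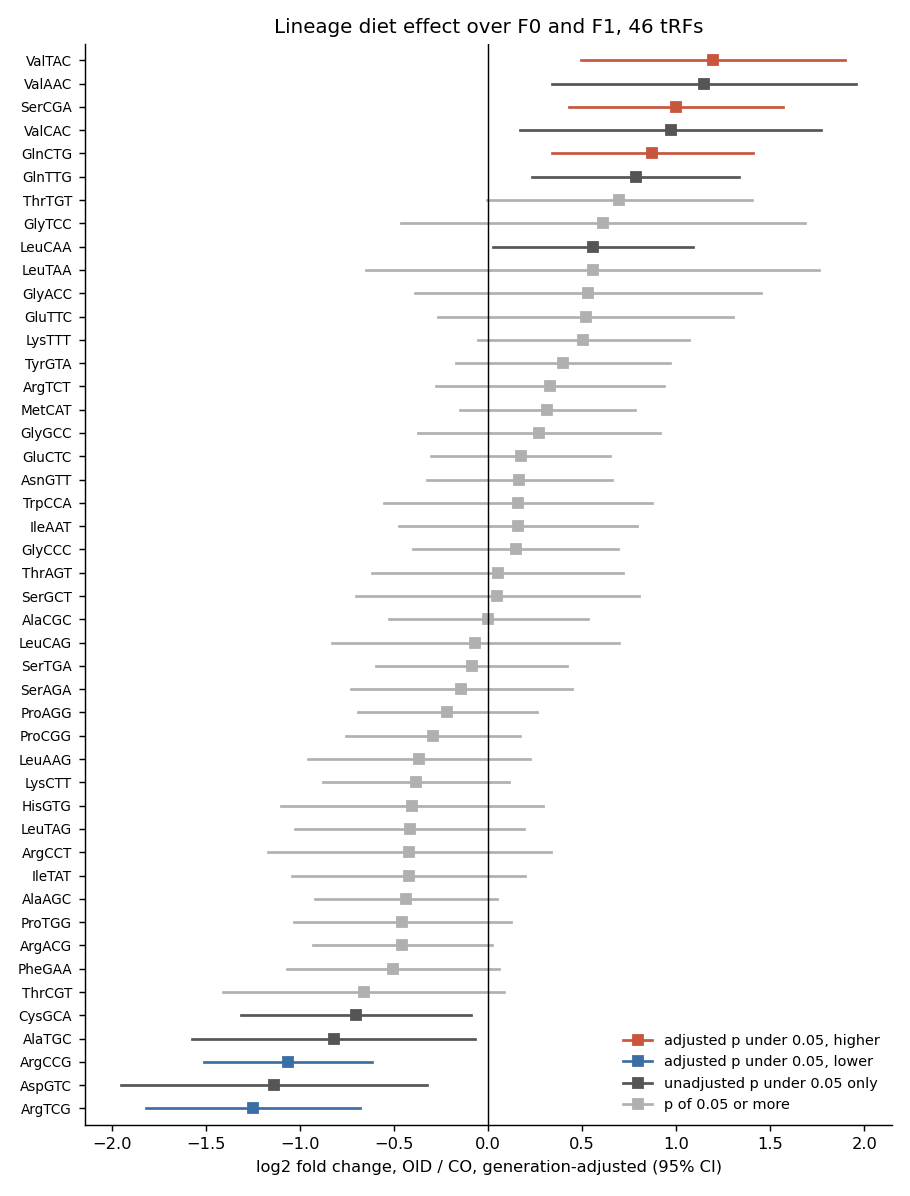
Generation-adjusted log2 fold change (OID over CO) of 46 tRFs with its 95% confidence interval from limma, over 7 CO and 8 OID libraries; colour marks the tests passed, and SeCTCA is left out because it had 3 reads or fewer in every library. The 3 called higher tRFs lie at 0.87 to 1.19 and the 2 called lower ones at -1.06 and -1.25, while ValAAC (1.15) and AspGTC (-1.14) have folds of the same size with wider intervals.

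ArgCCG, from the arginine tRNA that reads the codon CGG, had a normalized value of 2169 to 4339 in CO libraries, with a median of 2767, and of 1055 to 1739 in OID libraries, with a median of 1401. The highest OID library thus stayed under the lowest CO library. It was the only tRF of the 47 (2.13%) without overlap over all 15 libraries, and all 28 pairs of an OID and a CO male of the same generation had the OID male lower. Means were 3034 ± 770 (SD, n = 7) for CO and 1421 ± 250 (SD, n = 8) for OID. The log2 fold change was -1.06 (SE 0.21, 95% confidence interval -1.51 to -0.61, limma adjusted p = 0.00403), or 2.09 times lower. The two-sided exact permutation test within generations gave p = 0.000408, the smallest that its 2450 arrangements allow. At least 45 reads stood behind each ArgCCG value. The log2 fold change was -1.25 once log2 depth was a covariate (limma adjusted p = 0.00523), and over libraries with at least 100000 reads it was -1.19 (limma adjusted p = 0.00260).

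ArgTCG, which reads CGA, was rarer. Its normalized value ran from 242 to 657 in CO, with a median of 456, and from 126 to 379 in OID, with a median of 172. OID F0 replicate 2, at 379, lay among the CO libraries, and the other 7 OID libraries were all below the lowest CO library. Means were 457 ± 168 (SD, n = 7) and 195 ± 81.0 (SD, n = 8), a log2 fold change of -1.25 (SE 0.27, 95% confidence interval -1.82 to -0.68, limma adjusted p = 0.00458; exact permutation p = 0.00122), with the OID male lower in 27 of 28 pairs. The 2 highest CO values, 657 and 627, were those of the 2 shallowest libraries and rested on 35 and 13 reads. With log2 depth as a covariate the fold was -0.61 on the log2 scale (SE 0.26) and was no longer called (limma adjusted p = 0.0955). Without the 2 shallow libraries it was -1.03 (limma adjusted p = 0.0204).

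The arginine family held 5 tRFs, and 4 of them had a log2 fold change below 0, against 22 of 47 among all tRFs. The family median was -0.46 against 0.05 for all tRFs. The 3 whose anticodon ends in CG read codons of the CGN box and were all below 0, ArgACG at -0.46 without being called (limma adjusted p = 0.184). This group was not among the lists first chosen, and 2 of its 3 members are the called tRFs, so its shared sign is a description. The other 2 did not share a sign. ArgCCT had a log2 fold change of -0.42 (limma adjusted p = 0.379) and ArgTCT, shown above, of 0.33 (limma adjusted p = 0.382). Summed over the family, arginine tRFs made up 1.72% ± 0.851 (SD, n = 7) of the CO and 0.948% ± 0.381 (SD, n = 8) of the OID tRF values. ArgCCT, which was not called, had a larger share than ArgCCG in every library. Its share ran from 0.317% to 2.00% in CO and from 0.179% to 1.06% in OID. For ArgCCG it was 0.251% to 0.697% and 0.121% to 0.267%, so the family sum does not measure the called tRFs alone. ArgCCG and ArgTCG did not vary together among libraries of 1 group. The correlation of what generation and lineage left of them was -0.16 over the 15 libraries.

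**Figure D3:**
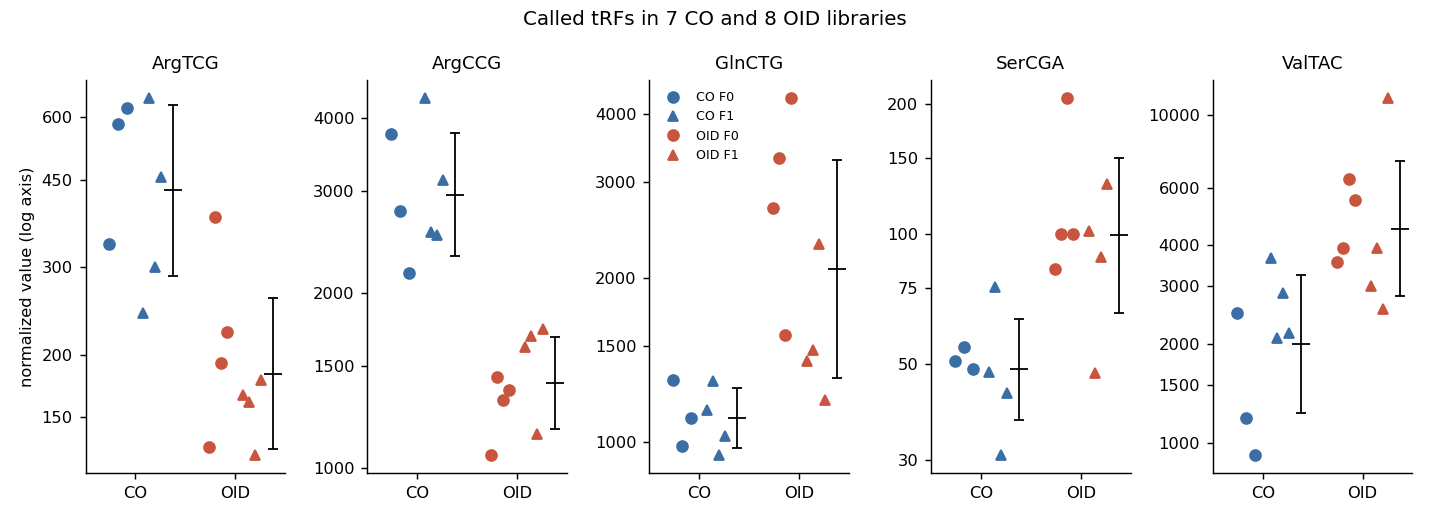
Normalized values of the 5 called tRFs in each library on log axes, by lineage (CO, OID) and generation (circles F0, triangles F1); the black mark and bar are the mean and SD on the log2 scale over 7 CO or 8 OID libraries. ArgCCG has no overlap between lineages, and ArgTCG, GlnCTG and SerCGA overlap through 1 OID library each.

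Among the tRFs that were higher in OID, ValTAC had the largest log2 fold change. It reads the valine codon GUA, and its normalized value was 916 to 3652 in CO, with a median of 2162, and 2553 to 11311 in OID, with a median of 3930. The lineages overlapped, since OID F0 replicate 1 and OID F1 replicates 1 and 3 lay below the highest CO library, and OID F1 replicate 4 stood highest. The log2 fold change was 1.19 (SE 0.34, 95% confidence interval 0.49 to 1.90, limma adjusted p = 0.0247; exact permutation p = 0.00449), with the OID male higher in 25 of 28 pairs. The lowest CO value, 916, was that of the shallowest library, with 19 reads. ValTAC was not called with log2 depth as a covariate (log2 fold change of 0.72, SE 0.41, limma adjusted p = 0.191) or over libraries with at least 100000 reads (0.97, limma adjusted p = 0.0561). It also missed the threshold without CO F0 replicate 2 (limma adjusted p = 0.0624), CO F0 replicate 3 (adjusted p = 0.0539) or OID F0 replicate 4 (adjusted p = 0.0546).

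All 3 valine tRFs were above 0, with a median log2 fold change of 1.15, and 1 of them was called, against 25 of 47 above 0 and 10.6% called among all tRFs. ValAAC had a log2 fold change of 1.15 (SE 0.39, limma adjusted p = 0.0506), and ValCAC, the most abundant of them, of 0.97 (SE 0.38, limma adjusted p = 0.104). ValAAC ran from 2258 to 8576 in CO and from 4514 to 27159 in OID. ValCAC ran from 4291 to 14393 in CO and from 7264 to 48240 in OID. Both overlapped between the lineages, and both were called with log2 depth as a covariate, at 1.63 (limma adjusted p = 0.0239) and 1.43 (limma adjusted p = 0.0383), unlike ValTAC. Over libraries with at least 100000 reads they were called too, at 1.35 (limma adjusted p = 0.0303) and 1.20 (limma adjusted p = 0.0462). ValAAC and ValCAC moved almost as 1 among the libraries of a group, with a residual correlation of 0.98 over the 15 libraries, while the correlation of ValTAC with ValAAC was 0.02. The valine share of the tRF values was 2.46% ± 0.912 (SD, n = 7) for CO libraries and 4.77% ± 1.75 (SD, n = 8) for OID.

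SerCGA, which reads UCG, was the rarest called tRF, with a normalized value of 30.8 to 75.6 in CO (median 48.7) and of 47.6 to 207 in OID (median 100.1). OID F1 replicate 2 lay within the CO range, and the other 7 OID libraries lay above it. The log2 fold change was 1.00 (SE 0.27, 95% confidence interval 0.43 to 1.56, limma adjusted p = 0.0247; exact permutation p = 0.00286), with 26 of 28 pairs in that direction. A single read stood behind the value in CO F0 replicate 3, and 4 reads in CO F1 replicate 2. Over libraries with at least 100000 reads, where counts were 21 or more, it was 1.10 (limma adjusted p = 0.0204), and with log2 depth as a covariate 1.18 (limma adjusted p = 0.0239). It missed the threshold without CO F0 replicate 2 (limma adjusted p = 0.0519) or CO F0 replicate 3 (adjusted p = 0.0536).

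The other serine tRFs did not share the difference. SerAGA had a log2 fold change of -0.14, SerTGA of -0.09 and SerGCT of 0.05, and their intervals included 0. SerGCT averaged 1011 ± 553 (SD, n = 7) for CO and 1000.3 ± 459 (SD, n = 8) for OID, and its sign turned under rescaling to equal sums (-0.10). Serine tRNAs share a long variable arm with those of leucine and selenocysteine, and of the 10 tRFs from such tRNAs 1 was called, SerCGA, a share close to the 10.6% of all tRFs.

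GlnCTG, which reads CAG, had a normalized value of 947 to 1303 in CO, with a median of 1109, and of 1193 to 4292 in OID, with a median of 1942. The CO libraries lay close together, and 1 OID library, OID F1 replicate 4, fell within their range. Its log2 fold change was 0.87 (SE 0.26, 95% confidence interval 0.34 to 1.41, limma adjusted p = 0.0267; exact permutation p = 0.00408), with 27 of 28 pairs in that direction and at least 23 reads in each library. It stayed called with log2 depth as a covariate (1.06, limma adjusted p = 0.0239) and over libraries with at least 100000 reads (0.89, limma adjusted p = 0.0337). It missed the threshold in 7 of the 15 fits without 1 library. These were the fits without CO F0 replicate 1 (limma adjusted p = 0.0553), 2 (0.0774) or 3 (0.0539), OID F0 replicate 1 (0.0512), 2 (0.0601) or 4 (0.0560), or OID F1 replicate 3 (0.0717).

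GlnTTG, the second glutamine tRF, differed in the same direction by 0.79 on the log2 scale (SE 0.26), just short of the threshold with limma (adjusted p = 0.0506). It ran from 193 to 564 in CO, with a median of 375, and from 412 to 1065 in OID, with a median of 572, and 27 of 28 pairs had the OID male higher. It was the sixth tRF to pass when the calls were made from the exact permutation test (adjusted p = 0.0448). It was not called with log2 depth as a covariate (0.66, limma adjusted p = 0.142) or over libraries with at least 100000 reads (0.57, limma adjusted p = 0.0968), and its lowest CO value, 193, rested on 4 reads. With the covariate over the libraries of at least 100000 reads, GlnTTG was called (0.81, limma adjusted p = 0.0451). The residual correlation of GlnTTG with GlnCTG was 0.59 over the 15 libraries.

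AspGTC was the most abundant of the tRFs with lower values in OID at an unadjusted p under 0.05. It ran from 6842 to 32367 in CO, with a median of 13388, and from 1160 to 16326 in OID, with a median of 5667. The log2 fold change was -1.14 (SE 0.39, limma adjusted p = 0.0506), and the lineages overlapped. With log2 depth as a covariate it was -1.97 (limma adjusted p = 0.00523), and over libraries with at least 100000 reads -1.36 (limma adjusted p = 0.0327), while it was -0.87 without OID F0 replicate 2 (limma adjusted p = 0.0729). AspGTC is a substrate of the methyltransferase Dnmt2, as are GlyGCC and ValAAC. None of these 3 passed the test with limma as reported, and 2 of them had an unadjusted p under 0.05, in opposite directions, where 10.6% of all tRFs passed and 27.7% had such a p.

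CysGCA had a log2 fold change of -0.70 (limma adjusted p = 0.113) and AlaTGC of -0.82 (limma adjusted p = 0.133), both with an unadjusted p under 0.05, and LeuCAA, at 0.56 (limma adjusted p = 0.148), was the remaining one with a fold. With log2 depth as a covariate they were at -0.84 (limma adjusted p = 0.104), -1.51 (0.0239) and 0.46 (0.315), and over libraries with at least 100000 reads at -0.82 (0.0693), -0.999 (0.0693) and 0.60 (0.0921). SeCTCA, from the selenocysteine tRNA, had 0 to 3 reads in every library, so that no fold is given. Its highest normalized value, 48.7, was 1 read in the shallowest library. Its limma adjusted p was 0.113. On these few reads it was called lower with limma-voom, with array weights and without CO F1 replicate 2.

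The abundant tRFs did not pass the test as reported. GluCTC held 43.8% and GlyGCC 29.4% of the tRF values on average over the 15 libraries. Jointly they held 72.7% ± 5.51 (SD, n = 7) of the CO and 73.7% ± 3.33 (SD, n = 8) of the OID values. The generation-adjusted difference, 0.840 percentage points, was smaller than the spread of libraries (exact permutation p = 0.722, two-sided). The log2 fold change was 0.17 (95% confidence interval -0.30 to 0.65) for GluCTC and 0.27 (-0.37 to 0.91) for GlyGCC. For GluTTC, GlyCCC and LysCTT, the next in abundance, it was 0.52, 0.15 and -0.38, and the limma adjusted p of the 5 lay between 0.275 and 0.702. With log2 depth as a covariate GlyGCC was called higher (log2 fold change of 0.91, SE 0.33, limma adjusted p = 0.0469), while GluCTC was not (0.29, limma adjusted p = 0.440). Over libraries with at least 100000 reads neither was called, GlyGCC at 0.58 (limma adjusted p = 0.109) and GluCTC at 0.13 (limma adjusted p = 0.703). With the covariate over these libraries GlyGCC was called again (0.94, limma adjusted p = 0.0411), and GluCTC was not. The 5 called tRFs together made up 1.09% of the tRF values in CO and 1.28% in OID.

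Among all 47 tRFs, against which the following counts stand, 10.6% were called, 27.7% had an unadjusted p under 0.05 and 22 lay below 0. By family, 4 of 4 glycine tRFs had a log2 fold change above 0 (0.15 to 0.61) and 3 of 3 proline tRFs one below 0 (-0.46 to -0.22), with 0 called by limma in either and 0 at an unadjusted p under 0.05. In other fits the glycine signs did not all hold, as GlyTCC was at -0.38 with log2 depth as a covariate. Of the 8 inosine-type tRFs, whose anticodon starts with A in the gene, 0 were called, 1 (ValAAC) had an unadjusted p under 0.05 and 5 lay below 0. Of the 4 whose tRNAs carry queuosine (AspGTC, AsnGTT, HisGTG and TyrGTA), 0 were called, 1 (AspGTC) had an unadjusted p under 0.05 and 2 lay below 0. The 27 tRFs not named by the rule split into 13 above and 14 below 0, between -0.66 and 0.70, with no limma adjusted p under 0.176. Over the 47 tRFs the 95% confidence interval reached 0.60 on the log2 scale to either side at the median, and 34 of the 42 tRFs that were not called had an interval that included 0.

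The fit with log2 depth as a covariate gave 13 calls, 5 higher and 8 lower, and 3 of them (ArgCCG, SerCGA and GlnCTG) were among the 5 called without it. The added higher tRFs were ValAAC, ValCAC and GlyGCC. The added lower ones were AspGTC, AlaTGC, ThrCGT, LeuAAG, IleTAT, LeuTAG and ThrAGT, the last 5 of them named here after their values were seen. AlaTGC, which ran from 166 to 1043 in CO and from 76.9 to 333 in OID, went from a log2 fold change of -0.82 to -1.51 (SE 0.41, limma adjusted p = 0.0239). ThrAGT went from 0.05 to -0.80 (limma adjusted p = 0.0455), and thus changed sign. Over libraries with at least 100000 reads and without that covariate, ThrAGT was at -0.31 and was not called (limma adjusted p = 0.428). With the covariate over these libraries, all 13 were called again, ThrAGT among them, and GlnTTG was called as well.

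Whether 1 effect of lineage served both generations was checked by the interaction of lineage diet and generation. With limma it was called in 0 of 47 tRFs (lowest adjusted p = 0.657), and 2 had an unadjusted p under 0.05, LysTTT and ValAAC. For ArgCCG the log2 difference was -1.14 in F0 and -0.999 in F1. It was -1.20 and -1.29 for ArgTCG, while for ValTAC it was 1.75 and 0.72 and for GlnCTG 1.31 and 0.50. ValTAC and GlnCTG thus had the wider gap between generations, which the interaction test did not call (limma adjusted p = 0.657 for both). In 40 of 47 tRFs the difference had the same sign in F0 and F1. Generation itself was called in 0 of 47 tRFs (lowest limma adjusted p = 0.282), with 7 at an unadjusted p under 0.05.

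**Figure D4:**
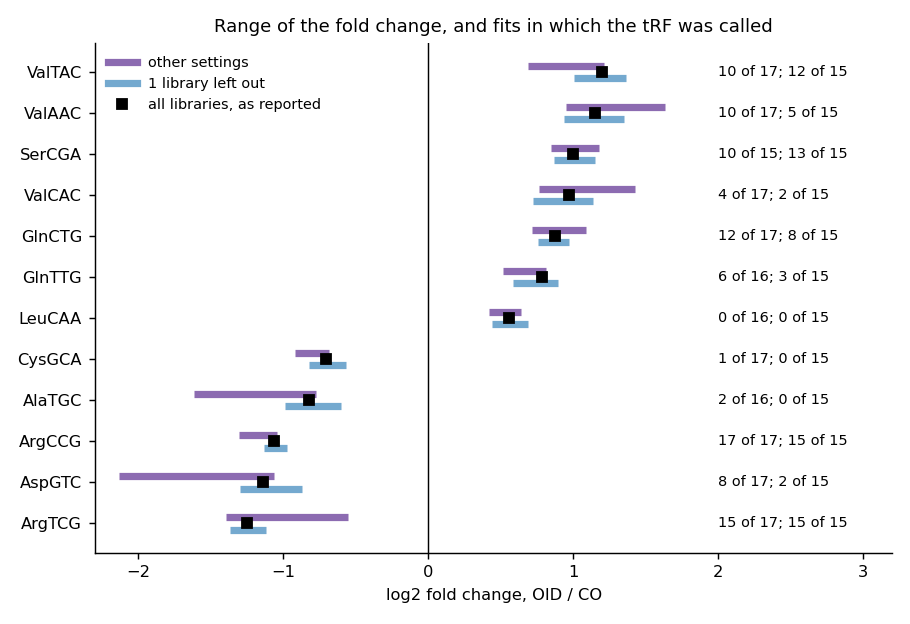
Range of the log2 fold change (OID over CO) of 12 tRFs with an unadjusted p under 0.05 over the other settings (purple) and over the fits without 1 library (blue), with the reported value as a square. At the right stand the number of other settings and of fits without 1 library in which each tRF was called; ArgCCG was called in 17 of 17 and 15 of 15, and ArgTCG in 15 of 17 and 15 of 15.

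ValTAC and ArgCCG moved in opposite directions, and the ratio of 2 tRFs within a library needs no scaling between libraries. The pair was chosen after the calls were known, so its values are a description. The log2 ratio of ValTAC to ArgCCG ran from -1.24 to 0.19 in CO libraries, with a median of -0.54, and from 0.89 to 2.70 in OID libraries, with a median of 1.60. The lineages did not overlap in this ratio. ArgCCG alone did not overlap either, while ValTAC alone did, so the gap in the ratio is no separate evidence of a difference. The correlation of what generation and lineage left of ArgCCG and ValTAC was 0.54 over the 15 libraries. Depth differed between the lineages here too, and its part in the ratio was not tested.

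**Figure D5:**
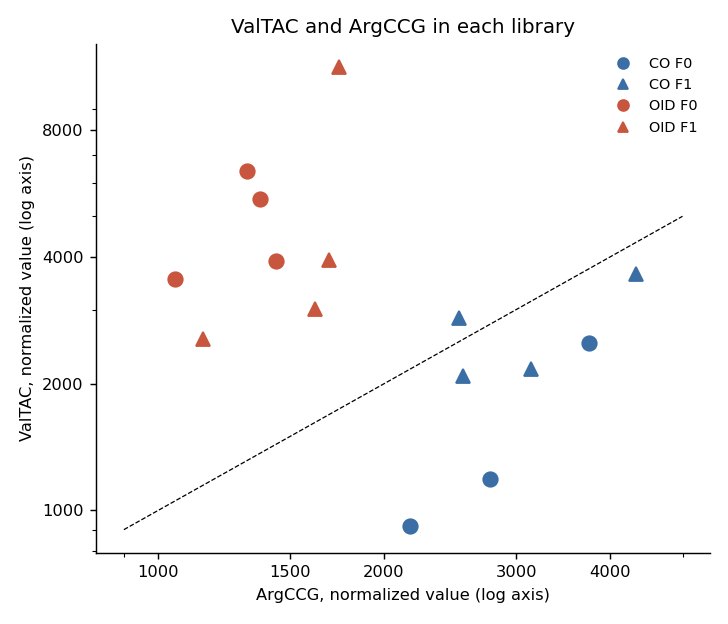
ValTAC (y axis) against ArgCCG (x axis) in each of the 15 libraries, normalized values on log axes, by lineage and generation; the dashed line marks equal values. All 8 OID libraries lie above the line, by 0.89 to 2.70 on the log2 scale, and 6 of the 7 CO libraries below it.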

How the data were processed

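Small RNA-seq libraries of mouse sperm were used as the authors deposited them, in 1 normalized table. Per the study's methods, Trimmomatic removed adapters and low-quality bases, the genome was GRCm38/mm10, blastn annotated the tRNAs, and a read shared by tRNAs counted with a weight. The submitters' processing notes also name Bowtie2 2.3.4.1 and DESeq2. The deposited values are a normalized signal, reads times 1 amount per library plus 0.5 for the tRF entries. The miRNA and mature tRNA entries have an amount of their own in each library. The methods call them TPM, but the tRF values of 1 library alone summed to 1127788, above the total that TPM allows, and they were treated as a relative signal. After the offset of 0.5 was subtracted, all 705 tRF values (100%) were whole reads to within 0.001, which gave the depth of each library, 17966 to 5363471 tRF reads. The weighting of shared reads would leave fractions of reads, so whether the values include it is not known. Reads carry no molecular identifiers and are not independent molecules.

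Groups came from the sample titles. The model was limma 3.58.1 in R 4.3.3 (lmFit, eBayes without a trend) on log2(value + 1) with lineage diet and generation, Benjamini-Hochberg adjusted over the 47 tRFs, threshold 0.05. For single values, exact permutation tests (two-sided; Python 3.11.15, numpy 2.4.6) had the lineage labels permuted within F0 and within F1 (2450 arrangements). Both were run on simulated data with planted shifts larger than the called ones and without a depth difference. Those runs do not measure how well effects of the called size are found. The members, lists and tests were chosen with earlier results of these data known. Named tRFs were those with an adjusted or unadjusted p under 0.05, without overlap in both generations, among the 5 most abundant, named by the study, or the 2 closest to no change with at least 10 reads in every library; families and modification types were described by counts. No fold is given at 3 reads or fewer throughout. tRNA loci are from RefSeq on GRCm38.p6 (46 of 47 tRFs matched) and were set against GENCODE M21. The 4 mature tRNA entries and the 164 miRNA entries entered no comparison of tRFs. Alternatives were pseudocounts of 0.1 and 10, filters on low values, other scalings, no generation term, depth terms, weights, other tests, replicate blocks and each library left out. limma-voom on the reads, and depth with the shallow libraries left out, were added after the data were seen.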

Additional observations from a re-analysis of the deposited data

Results flagged for a closer look

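In 4 of 42 lineage groups (CO and OID for the 19 named tRFs with a fold, for the depth and for the joint share of GlyGCC and GluCTC), 1 library stood apart from the rest of its group by Dixon's criterion on the log2 scale (the share in percent), where chance gives about 1 in 20, or 2.1. GlyGCC was highest in CO F0 replicate 3, at 495177 against 176749 in the next CO library, a gap of 0.714 of the group's range. GlyCCC was highest in the same library, at 51455 against 25934 (gap of 0.673), and this library was the shallowest, with 17966 tRF reads. Without it the log2 fold change was 0.52 for GlyGCC (limma adjusted p = 0.198) and 0.32 for GlyCCC (limma adjusted p = 0.306). LeuCAG was lowest in CO F1 replicate 1, the deepest CO library, at 2030 against 9252 (gap of 0.716), and its log2 fold change went from -0.07 to -0.41 without it (limma adjusted p = 0.283). AspGTC was lowest in OID F0 replicate 2, at 1160 against 5128 (gap of 0.562), on 349 reads. What sets these libraries apart was not tested.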

How the results depend on the processing

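The number of tRFs called, 5 as reported, was 8 with a pseudocount of 10, 8 with an intensity trend, 10 with array weights, 13 with log2 depth as a covariate, 14 with that covariate over the libraries of at least 100000 reads, 13 at an unadjusted p, 3 with scaling that leaves out GlyGCC and GluCTC, 3 with limma-voom and 2 with libraries set to equal sums. Leaving out 1 library gave 2 to 10 calls, with 2 without CO F0 replicate 2 or 3, 3 without OID F0 replicate 4, 9 without OID F1 replicate 4 and 10 without CO F1 replicate 2. ArgCCG was called in all 17 other fits and all 15 fits without 1 library. ArgTCG was lost only in the 2 fits with a depth term. SerCGA and GlnCTG were lost with equal sums, scaling without the abundant pair, limma-voom and both replicate blocks, and ValTAC with equal sums, limma-voom, both blocks, both depth terms and the depth minimum. Of 19 named tRFs with a fold, 15 kept their direction in every fit. The exceptions were GluCTC (-0.0149) and GlyCCC (-0.0321) with limma-voom, LeuCAG with log2 depth as a covariate (0.34, and 0.50 over the libraries of at least 100000 reads) and without 1 library (-0.41 to 0.12), and SerGCT with equal sums (-0.10), scaling without the pair (-0.0703), array weights (-0.0839), limma-voom (-0.11), the replicate block (-0.00856), the block within generation (-0.0441) and without 1 library (-0.16 to 0.23). The joint share of GlyGCC and GluCTC differed by -0.160 to 2.49 percentage points without 1 library, and the depth of the libraries by 2.41 to 3.44 on the log2 scale, and the interaction had 0 calls in each fit made. The causes of these changes were not tested.

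Males of the same replicate number are not said to be related. Their deviations from the group means correlated by -0.15 to 0.23 in F0 and by -0.27 to 0.30 in F1, so the numbers were not taken as pairs. The replicate block gave 2 calls and the block within generation 2, ArgCCG and ArgTCG in both. Count models (edgeR, DESeq2) and limma-voom with TMM scaling, set as alternatives, were not run, since such tests were kept for values given as counts, and limma-voom on the recovered reads was run in their place. In the shallowest library 19 of 47 tRFs had fewer than 10 reads, which limits what can be said of rare tRFs in CO.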

Other observations

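The miRNA entries of the same table, which entered no comparison of tRFs, held 307 to 3952 reads per 1000000 tRF reads in CO libraries, with a median of 648, and 65.8 to 471 in OID libraries, with a median of 209. The generation-adjusted log2 difference was -2.09 (two-sided exact permutation test, p = 0.000408, the smallest possible). Depth differed between the lineages as well, and the miRNA precursors lie outside the fragment length cut from the gel, so that the part of either in this value was not tested. The 4 mature tRNA entries had medians near the floor, at 0.5 in CO, where 0.5 stands for no read. HisATG had values of 0.5 to 2.60 in CO and 0.5 to 5.59 in OID. IleGAT ran up to 1.06 in CO and 2.87 in OID, and SupTTA up to 1.06 and 2.78. SerGGA reached 43.3 in CO and 1.87 in OID, while its median was 0.5 in CO and 0.829 in OID. OID libraries were deeper, and the part of depth in these values was not tested.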
